A study of Mus musculus with 37 samples.

Results

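The 33 genes described here are activity-induced early genes, whose transcripts rise within minutes of strong neuronal firing and decline again soon afterwards. They were chosen by name and sorted by role: 5 AP-1 transcription factors, 4 EGR zinc finger factors, 3 NR4A orphan nuclear receptors, 4 other transcription factors, 5 synaptic effectors and secreted factors, 4 MAP kinase phosphatases, and 8 kinases and growth or RNA regulators. All 33 were among the 18193 genes with a probe set of their own, and 32 were among the 13078 genes whose signal was high enough to be tested. Atf3, a stress-responsive transcription factor, was not: its signals lay between 2.38 and 3.05 on the log2 scale, under the filter of 3.60.

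Signals came from temporal lobes of WFS1 KO and wild-type mice. Wfs1 encodes wolframin, a membrane protein of the endoplasmic reticulum that is mutated in Wolfram syndrome. There were 37 Affymetrix arrays in 4 groups, with 10 of WFS1 KO and 9 of wild-type mice of strain 129SV, and 9 of WFS1 KO and 9 of wild-type mice of strain C57. The series design names the backgrounds 129S6 and C57B6. The groups are called 129SV KO, 129SV WT, C57 KO and C57 WT below, and single arrays go by their sample number. The labels give no age, sex, litter, behavioural state or time of dissection, name no treatment, and do not say that each array holds a different animal. The p-values therefore measure the spread between samples, which may be technical in part.

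Wfs1 itself had a log2 signal of 3.11 ± 0.28 in 129SV KO and 9.33 ± 0.12 in 129SV WT, and of 3.03 ± 0.26 in C57 KO and 9.32 ± 0.17 in C57 WT (mean ± SD). No 2 arrays were identical, among 666 pairs. The difference between the 3′ and 5′ probe sets of actin, a sign of RNA quality, lay between 0.91 and 2.76, and was highest in 129SV WT array 73. After the group means were removed, 40 highly variable genes, none of them an early gene, split the arrays into a set of 19 with the lower sample numbers of each group (set 1) and a set of 18 with the higher numbers (set 2). The sets are a feature of the data, and no label names them. With a term for the set, 7.13% of the genes tested differed between the sets (limma, adjusted p under 0.05). The sets were cut from these same signals, so p-values for differences between them, here and below, describe the split and test no known factor.

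In neurons, calcium that enters through NMDA receptors and voltage-gated channels activates CaM kinases and the MAP kinase cascade, which act on transcription factors already bound at early gene promoters, among them CREB, SRF and MEF2. Some products, such as Fos, Egr1 and Npas4, are transcription factors that pass the signal on to later genes, and others, such as Arc, Homer1 and Bdnf, act at the synapse. Early gene RNA is short-lived, and handling, arousal and seizures are all known to raise it in the forebrain. CREB binds the cAMP response element (CRE), and SRF binds the serum response element (SRE, or CArG box).

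The promoters of Fos and of 3 early genes whose signals followed it closely from array to array are shown with these elements, as the genes whose shared movement is described further on. RefSeq windows (GRCm38.p6) of 300 bases, from 250 before to 50 after each start, were matched to 24 of the 33 genes, which had 35 windows. Capitals mark a CRE (TGACGTCA), a CRE core (TGACG) or an SRE found on either strand, and CRE cores inside a CRE overlap it. The Fos window is chr12:85473640-85473939 (plus strand) and the Junb window chr8:84978699-84978998 (minus). The Btg2 window is chr1:134079106-134079405 (minus). For Egr2, the window with the most matches among 5 is shown, chr10:67537619-67537918 (plus).
Fos: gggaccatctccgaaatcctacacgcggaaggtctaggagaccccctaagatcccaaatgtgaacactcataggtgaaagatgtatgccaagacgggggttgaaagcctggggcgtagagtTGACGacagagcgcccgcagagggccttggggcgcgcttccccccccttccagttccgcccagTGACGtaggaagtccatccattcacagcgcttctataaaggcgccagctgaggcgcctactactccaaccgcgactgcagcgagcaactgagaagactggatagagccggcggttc
Egr2: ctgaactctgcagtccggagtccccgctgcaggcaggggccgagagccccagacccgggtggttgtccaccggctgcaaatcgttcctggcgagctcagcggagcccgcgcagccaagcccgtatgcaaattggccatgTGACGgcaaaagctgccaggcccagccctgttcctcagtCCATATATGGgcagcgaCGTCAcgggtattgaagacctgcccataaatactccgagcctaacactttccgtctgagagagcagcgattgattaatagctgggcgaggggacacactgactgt
Junb: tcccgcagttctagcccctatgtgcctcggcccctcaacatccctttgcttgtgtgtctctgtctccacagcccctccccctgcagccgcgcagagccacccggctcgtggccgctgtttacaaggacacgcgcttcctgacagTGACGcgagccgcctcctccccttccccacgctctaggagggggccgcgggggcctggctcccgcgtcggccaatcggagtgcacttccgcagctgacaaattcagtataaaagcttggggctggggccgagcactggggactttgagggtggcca
Btg2: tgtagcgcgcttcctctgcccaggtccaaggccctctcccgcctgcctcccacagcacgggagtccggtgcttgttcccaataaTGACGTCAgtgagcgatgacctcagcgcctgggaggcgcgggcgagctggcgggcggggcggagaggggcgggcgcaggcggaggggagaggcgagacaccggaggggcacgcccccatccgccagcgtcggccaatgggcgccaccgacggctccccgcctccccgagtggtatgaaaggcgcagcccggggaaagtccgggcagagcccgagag
Counted from the start as position 1, with no position 0, the Fos window held CRE cores at -129 to -125 and at -66 to -62. The Egr2 window held an SRE at -72 to -63, between CRE cores at -111 to -107 and -55 to -51. The Junb window held a CRE core at -106 to -102, and the Btg2 window a full CRE at -166 to -159. The window of Dusp6, which also followed Fos, held none of these letters and is not printed. A CRE core was in 19 of the 35 early gene windows (54.3%), against 20.8% of the 32851 windows in the table. An SRE was in 6 early gene windows (17.1%), against 1.63% of all windows. By gene, these were 3 of the 24 matched, Egr2, Dusp5 and Zfp36, and most of the 6 were windows of Egr2 alone. A full CRE was in 2 (5.71%), of Btg2 and Dusp1, against 1.79%. The AP-1 letters TGAGTCA and the EGR letters GCGTGGGCG were in 0 of the 35 windows, against 5.20% and 0.612% of all windows. A match is a run of letters, not a proven site, and a window without one says nothing of the factor.

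The main question of the design was whether temporal lobes without Wfs1 differed from wild-type ones. No early gene passed that test in either strain. In C57, 0 of 32 early genes had a limma adjusted p under 0.05, where 0.107% of all genes tested did, and in 129SV, 0 of 32 did, where 0.00765% of all genes did. Over both strains the count was 0 of 32, against 0.0229% of all genes, and for the difference of the KO effects between strains it was 0 of 32, against 0.0153%. At an unadjusted p under 0.05 there were 2 early genes in C57, where 6.37% of all genes had one, and 4 in 129SV, where 2.13% had one. There were 5 over both strains, where 4.95% of all genes had one, and 1 for the difference of the KO effects, where 3.34% had one. The 4 in 129SV numbered between 1 and 7 with 1 array left out, and were 15 with array weights. They numbered 1 without 129SV WT array 77 or 78, and 7 without 129SV WT array 70 or 71. In 0 of the 33 genes did the arrays of KO and WT separate without overlap in C57, where 0.0612% of all genes tested did, or in 129SV, where 0.00765% did. In whole tissue, fewer cells that express a gene and less RNA per cell cannot be told apart.

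Most estimates were nevertheless below 0. In 129SV the KO minus WT difference was below 0 for 27 of 32 early genes, with a median of -0.13 log2 units, beside 52.4% of all genes and a median of -0.004. In C57 it was below 0 for 24 of 32, with a median of -0.03, beside 38.4% of all genes and a median of 0.02. Within set 1 the median was -0.06 in 129SV and -0.02 in C57, and within set 2 it was -0.22 in 129SV and -0.11 in C57. The early genes moved together from array to array, so their signs are not independent counts.

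**Figure D1:**
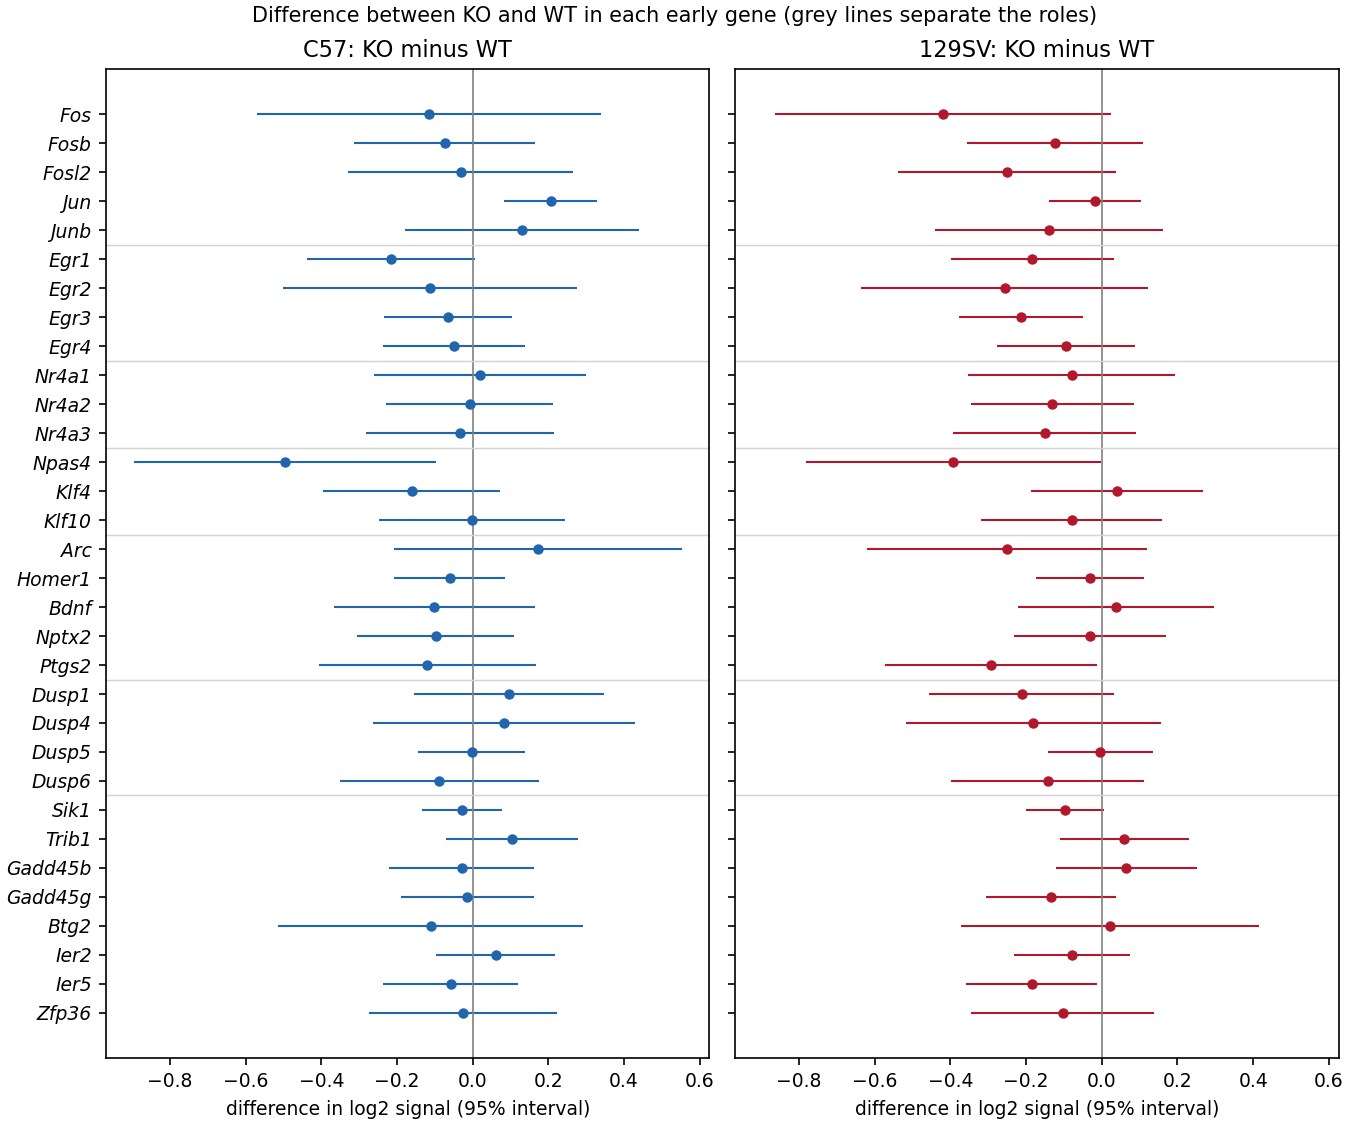
Difference in log2 signal, KO minus WT, for the 32 early genes tested, in C57 (left, blue) and 129SV (right, red), with 95% intervals from limma and grey lines between the roles. Below 0 lie 24 points in C57 and 27 in 129SV, and the intervals of all but 2 genes in C57 and 4 in 129SV include 0.

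Among the AP-1 genes, Fos, which dimerizes with Jun proteins, had a lowest, median and highest log2 signal of 5.94, 6.68 and 7.58 in 129SV KO, against 6.17, 6.98 and 7.97 in 129SV WT. In C57 KO the 3 values were 6.83, 7.21 and 7.87, against 6.52, 7.24 and 8.38 in C57 WT. The KO and WT ranges overlapped over most of their length in both strains. The difference was -0.42 (SE 0.22, limma adjusted p = 1.00) in 129SV and -0.11 (SE 0.22, adjusted p = 0.986) in C57. The other Fos proteins measured, Fosb and Fosl2, differed by -0.12 and -0.25 in 129SV and by -0.07 and -0.03 in C57. Junb, a Jun relative that also pairs with Fos, differed by -0.14 in 129SV and 0.13 in C57.

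Jun, the best known partner of Fos, was the AP-1 gene with the smallest unadjusted p. Its lowest, median and highest signals were 7.05, 7.30 and 7.61 in C57 KO, against 6.96, 7.15 and 7.32 in C57 WT, and 7.27, 7.34 and 7.44 in 129SV KO, against 7.15, 7.38 and 7.53 in 129SV WT. The C57 KO arrays sat higher than the C57 WT arrays but overlapped them, and both 129SV groups lay among the C57 KO values. The difference was 0.21 in C57 (SE 0.06, unadjusted p = 0.00175, limma adjusted p = 0.360) and -0.02 in 129SV. The C57 value was 0.11 within set 1 and 0.30 within set 2. The difference of the KO effects, C57 minus 129SV, was 0.22 (SE 0.09) and did not pass the test either (adjusted p = 0.999).

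The 4 EGR genes encode zinc finger factors that bind GC-rich sites and are widely used as activity markers. All 4 differences were below 0 in both strains for the probe sets used. Another Egr3 probe set differed by 0.01 in 129SV and -0.12 in C57, and another Egr2 probe set by -0.39 and -0.29. Egr1, the EGR factor most studied in plasticity, had signals of 9.87, 10.32 and 10.74 (lowest, median, highest) in 129SV KO, against 10.18, 10.38 and 10.86 in 129SV WT, and of 10.04, 10.19 and 10.54 in C57 KO, against 10.15, 10.48 and 10.88 in C57 WT. In each strain the highest array was a WT one and the ranges overlapped. The Egr1 difference over both strains was -0.20 (SE 0.08, unadjusted p = 0.0128, adjusted p = 0.821). Egr2, Egr3 and Egr4 differed by -0.26, -0.21 and -0.095 in 129SV and by -0.11, -0.07 and -0.05 in C57.

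The NR4A genes encode nuclear receptors that act without a known hormone ligand. Nr4a1, Nr4a2 and Nr4a3 differed by -0.08, -0.13 and -0.15 in 129SV and by 0.02, -0.01 and -0.03 in C57, and the 95% interval of each included 0.

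Npas4, a neuron-restricted transcription factor induced by calcium entry, had the most negative estimate of the 32 over both strains. Its lowest, median and highest signals were 3.95, 4.10 and 4.58 in C57 KO, against 3.78, 4.53 and 5.63 in C57 WT. In 129SV KO they were 3.72, 4.35 and 5.09, against 3.90, 4.80 and 5.36 in 129SV WT. The WT medians stood above the KO medians in both strains, while the lowest C57 array was a WT one. The difference was -0.50 (SE 0.20) in C57 and -0.39 (SE 0.19) in 129SV, and -0.44 (SE 0.14, unadjusted p = 0.00259) over both, with limma adjusted p-values of 0.646, 1.00 and 0.645. In C57 the value was alike within the sets, at -0.51 in set 1 and -0.49 in set 2. In 129SV it was -0.07 in set 1 and -0.81 in set 2, where the KO arrays lay between 3.95 and 4.59 and the WT arrays between 5.00 and 5.36 (adjusted p = 1.00). Of the other transcription factors, Klf4 differed by 0.04 in 129SV and -0.16 in C57, and Klf10 by -0.08 and -0.00.

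**Figure D2:**
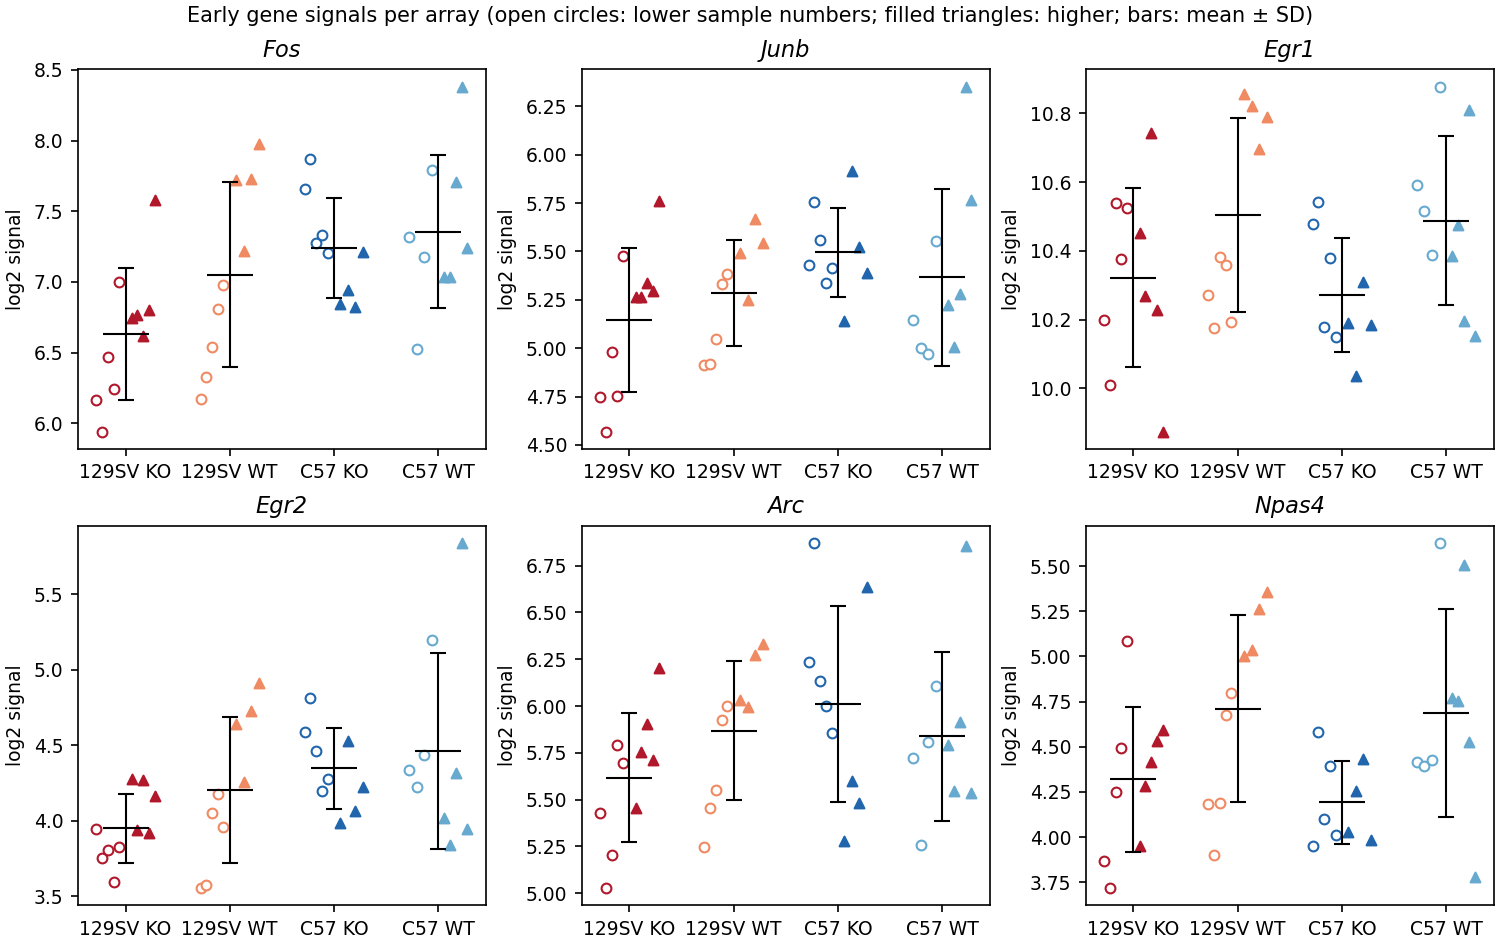
Log2 signal of Fos, Junb, Egr1, Egr2, Arc and Npas4 on each of the 37 arrays, with open circles for set 1, filled triangles for set 2 and black bars for mean ± SD. Arrays of 1 group spread widely in each panel, and C57 WT array 40 is the highest for Fos (8.38), Junb (6.35) and Egr2 (5.84).

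Arc, a capsid-like postsynaptic protein whose RNA travels to active dendrites, had signals of 5.03, 5.70 and 6.20 (lowest, median, highest) in 129SV KO, against 5.25, 5.99 and 6.33 in 129SV WT. In C57 KO they were 5.28, 6.0 and 6.87, against 5.26, 5.79 and 6.86 in C57 WT. The difference was -0.25 (SE 0.18) in 129SV and 0.17 (SE 0.19) in C57, with opposite signs and both within the spread between arrays. Ptgs2, the inducible cyclooxygenase, differed by -0.29 (SE 0.14, unadjusted p = 0.0415, adjusted p = 1.00) in 129SV and -0.12 in C57. Another Ptgs2 probe set, with a mean signal of 4.16, differed by 0.03 in 129SV and -0.09 in C57. Bdnf, a neurotrophin, differed by 0.04 and -0.10, and Nptx2, a secreted pentraxin at excitatory synapses, by -0.03 and -0.10.

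Homer1, a postsynaptic scaffold, depends on the probe set. The probe set with the highest mean differed by -0.03 in 129SV and -0.06 in C57. Of its 5 other probe sets, the 1 with a mean signal of 7.75 differed by -0.48 in 129SV and 0.18 in C57, and the 1 with a mean of 5.27 by 0.17 in 129SV and -0.19 in C57. Activity induces the short Homer1a form, and no file here says which form each probe set reads. Other genes also had more than 1 probe set, and their correlation with Fos differed in both directions. Another probe set gave a lower r than the one used for Fosl2 (-0.19, against 0.47), and a higher one for Jun (0.46, against 0.11).

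The MAP kinase phosphatases switch the cascade off again. Dusp1, which acts on p38, JNK and ERK in the nucleus, differed by -0.21 (SE 0.12) in 129SV and 0.10 (SE 0.12) in C57. Dusp4, another nuclear phosphatase, differed by -0.18 in 129SV and 0.08 in C57, Dusp6, a cytoplasmic ERK phosphatase, by -0.14 and -0.09, and Dusp5, a nuclear ERK phosphatase, by -0.004 and -0.002. None of these passed the test.

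The last 8 genes are kinases and growth or RNA regulators. Ier5, a short-lived nuclear regulator, was the one with an unadjusted p under 0.05, at -0.18 in 129SV (SE 0.09, p = 0.0372, adjusted p = 1.00) and -0.06 in C57. Other Ier5 probe sets differed by -0.006 and -0.29 in 129SV, and by -0.21 and -0.05 in C57. Btg2, an antiproliferative factor that recruits RNA deadenylases, differed by 0.02 in 129SV and -0.11 in C57. Gadd45b and Gadd45g, stress-induced regulators of growth and DNA demethylation, differed by 0.06 and -0.13 in 129SV and by -0.03 and -0.01 in C57. Sik1, a salt-inducible kinase that holds CREB coactivators in the cytoplasm, differed by -0.10 and -0.03, and Trib1, a pseudokinase, by 0.06 and 0.10. Zfp36 (tristetraprolin), which destabilizes AU-rich RNA, differed by -0.10 in 129SV and -0.03 in C57, and Ier2 by -0.08 and 0.06. Untested Atf3 averaged 2.74 ± 0.06 in 129SV KO and 2.58 ± 0.16 in 129SV WT, and 2.80 ± 0.21 in C57 KO and 2.73 ± 0.26 in C57 WT (SD).

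The same genes were compared between the strains. In wild-type mice, 0 of 32 passed the test for 129SV against C57, where 2.06% of all genes did, and in KO mice 0 of 32 passed, where 3.06% did. The median difference was 0.01 in WT, beside 0.02 over all genes, and -0.10 in KO, beside -0.01. At an unadjusted p under 0.05 there were 2 early genes in WT, where 11.6% of all genes had one, and 6 in KO, where 12.3% had one. In WT these were Klf4, at -0.40 (SE 0.12, adjusted p = 0.0538), and Jun, at 0.21 (SE 0.06, adjusted p = 0.0651). In KO they were Dusp1 (-0.39, SE 0.12, adjusted p = 0.0646), Fos (-0.61, SE 0.22, adjusted p = 0.148), Nr4a1, Junb, Arc and Egr2, the last 4 at -0.37, -0.35, -0.39 and -0.40. Klf4 signals ran from 4.33 to 4.89 in 129SV WT, against 4.73 to 5.53 in C57 WT, and overlapped at the edge. Klf4, Jun and Dusp1 lay so near the threshold that other processing moved them across it: Klf4 passed in WT with quantile normalization, array weights, only the groups compared or the actin difference as a covariate, and Jun with array weights. In KO, Dusp1 passed with quantile normalization and Egr2 with only the groups compared. Leaving out 1 array made Klf4 or Jun pass in WT for 11 of 37 arrays, and Dusp1 pass in KO for 5 of 37, Nr4a1 with it when C57 WT array 40 was left out.

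The estimated strain difference was not alike within set 1 and set 2. Because the sets were cut from these same signals, p-values within a set also describe the split and test no known factor. Within set 1, 8 of 32 early genes passed the test as lower in 129SV KO than in C57 KO, where 1.96% of all genes passed in either direction, and within set 2, 0 of 32 passed, where 0.214% of all genes did. The 8 were Fos, Fosl2, Junb, Egr2, Klf10, Arc, Dusp1 and Dusp6. In set 1, Fos averaged 6.36 ± 0.40 in 129SV KO (SD, n = 5) and 7.47 ± 0.28 in C57 KO (SD, n = 5), a difference of -1.10 (SE 0.22, limma adjusted p = 0.0141). In set 2 it averaged 6.90 ± 0.38 in 129SV KO (SD, n = 5) and 6.96 ± 0.18 in C57 KO (SD, n = 4). In set 1, Fos signals ran from 5.94 to 7.00 in 129SV KO and from 7.21 to 7.87 in C57 KO. How many of all genes separate within set 1 was not counted. Over both sets the Fos ranges overlapped, at 5.94 to 7.58 in 129SV KO and 6.83 to 7.87 in C57 KO. Between WT mice, 0 of 32 passed within set 1, where 0.451% of all genes did, and in set 2 Dusp4 was higher in 129SV WT than in C57 WT by 0.68 (SE 0.14, adjusted p = 0.0252), the 1 early gene of 32, where 0.895% of all genes passed.

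A limma term for the set difference in 129SV minus the set difference in C57, which pools KO and WT, was added after the data had been seen. Of 32 early genes, 4 passed, all above 0, where 0.566% of all genes tested passed. The estimate was above 0 for 28 of 32, with a median of 0.27 beside 0.03 for all genes. Fosl2 gave 0.91 (SE 0.14, adjusted p = 0.000871), Dusp4 0.87 (SE 0.19, adjusted p = 0.0192), Dusp6 0.68 (SE 0.13, adjusted p = 0.00925) and Nr4a3 0.63 (SE 0.14, adjusted p = 0.0172). Of the 8 genes of set 1 above, Fosl2 and Dusp6 passed here. Fos, at 0.92 (SE 0.26, adjusted p = 0.0934), Egr2 (adjusted p = 0.138), Klf10 (0.207), Arc (0.266), Junb (0.557) and Dusp1 (0.557) did not. Each of the 4 passed with any single array left out, but the sets stayed as cut from all 37 arrays, so this is no independent check. Without C57 WT array 40, 7 early genes passed, of 70 genes in all.

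Fosl2 shows the shape. It averaged 5.90 ± 0.14 in 129SV KO and 6.03 ± 0.20 in 129SV WT of set 1, and 6.36 ± 0.37 in 129SV KO and 6.81 ± 0.16 in 129SV WT of set 2 (SD, n = 4 or 5). In C57 the order of the sets was the other way round, with 6.43 ± 0.16 in C57 KO and 6.48 ± 0.14 in C57 WT of set 1, and 6.11 ± 0.12 in C57 KO and 6.19 ± 0.26 in C57 WT of set 2. Over the 32 genes the median difference of set 2 minus set 1 was 0.21 in 129SV and -0.10 in C57, beside -0.02 and -0.05 over all genes. With 1 set term shared by all groups, 5 of 32 early genes differed between sets, where 7.13% of all genes did. Btg2 (0.59, limma adjusted p = 0.000138), Bdnf (0.32), Junb (0.31) and Gadd45b (0.20) were higher in set 2, and Nr4a2 (-0.21, adjusted p = 0.0494) was lower. Because the sets were found in these same signals, these values describe the split and are no test of a known factor.

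**Figure D3:**
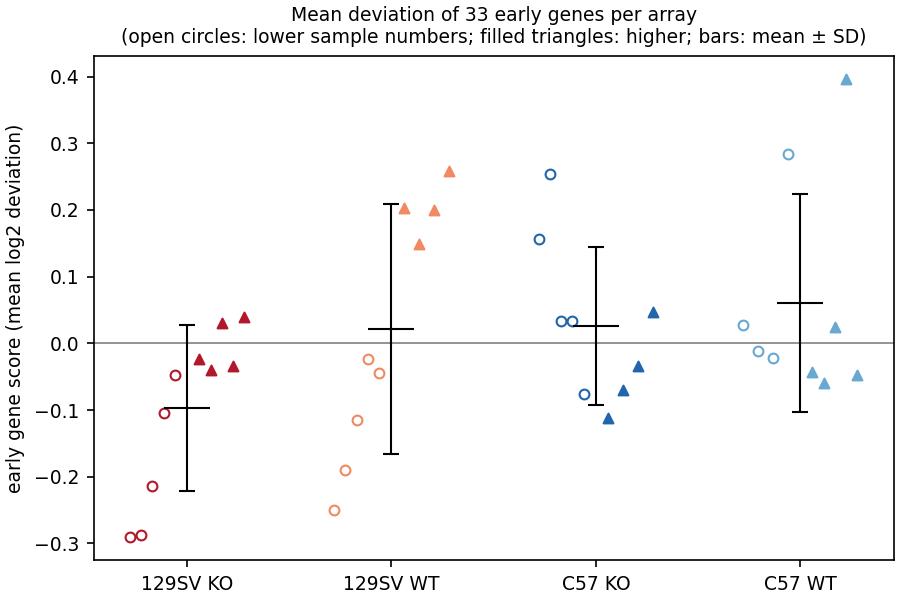
Mean deviation of the 33 early genes from their own means on each array (log2 units), with open circles for set 1, filled triangles for set 2 and bars for mean ± SD. In both 129SV groups the set 2 mean is above the set 1 mean, and in both C57 groups it is below.

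The mean deviation of the 33 genes from their own means summarizes each array as an early gene score. It was -0.10 ± 0.12 in 129SV KO and 0.02 ± 0.19 in 129SV WT, and 0.03 ± 0.12 in C57 KO and 0.06 ± 0.16 in C57 WT (SD), so the groups lay closer together than their arrays. In set 1 it averaged -0.19 in 129SV KO and -0.12 in 129SV WT, and 0.08 in C57 KO and 0.07 in C57 WT. In set 2 it averaged -0.005 in 129SV KO and 0.20 in 129SV WT, and -0.04 in C57 KO and 0.05 in C57 WT. The lowest score was -0.29, in 129SV KO array 50, and the highest 0.40, in C57 WT array 40.

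Certain arrays were the highest or lowest of their group for many early genes. The same counts were not made over all genes tested, so they do not set the early genes apart from other genes. C57 WT array 40 was the highest of its group for 12 of 33 genes, among them Fos, Junb, Egr2, Nr4a1, Arc and Dusp1. C57 KO array 2 was the highest for 11, including Fos, Egr1, Npas4 and Arc, and 129SV KO array 59 for 11, including Fos, Bdnf and Btg2. That 129SV KO array was also the lowest of its group for 5 genes, Egr1, Egr3, Nr4a2, Homer1 and Ier5, and its early gene score was 0.04. At the other end, 129SV WT array 70 was the lowest of its group for 16 of 33 genes and 129SV KO array 51 for 10. Actin 3′ to 5′ differences on these 5 arrays were 1.22, 1.52, 0.92, 1.06 and 1.66 in the order named, and their part in the result was not tested. Over all 37 arrays the correlation of Fos with the actin difference was r = -0.28 (Spearman correlation -0.25, permutation p = 0.162 and 0.158), and -0.27 without the 2 arrays farthest from the median.

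Early genes spread more within groups than most genes did. The SD around the group means had a median of 0.27 log2 units over the 32 early genes, against 0.16 over all genes tested. Of the 32, 28 were above the median of all genes and 20 were above their 90th percentile of 0.24. Among genes of like signal, within 0.5 log2 units, 19 of 32 were above the 90th percentile. The wider spread held in each group, with a median SD of 0.26 for early genes and 0.18 for all genes in 129SV KO, 0.24 and 0.13 in 129SV WT, 0.22 and 0.15 in C57 KO, and 0.24 and 0.13 in C57 WT. The genes' spread was not tested.

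Fos led with an SD of 0.51, above 99.5% of the genes tested. The brightest Fos array exceeded the dimmest by 3.11-fold in 129SV KO and 3.48-fold in 129SV WT, and by 2.06-fold in C57 KO and 3.63-fold in C57 WT. Btg2 (0.45), Npas4 (0.45), Egr2 (0.44), Arc (0.43), Dusp4 (0.39) and Junb (0.35) followed. At the low end, for the probe sets used, stood Sik1 (0.10), Jun (0.13), Dusp5 (0.15) and Homer1 (0.15), all below the median of all genes. Another Jun probe set, with a mean signal of 6.95, had an SD of 0.23. The other Homer1 probe sets had SDs between 0.18 and 0.50, so the low spread of Homer1 holds for the probe set used.

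**Figure D4:**
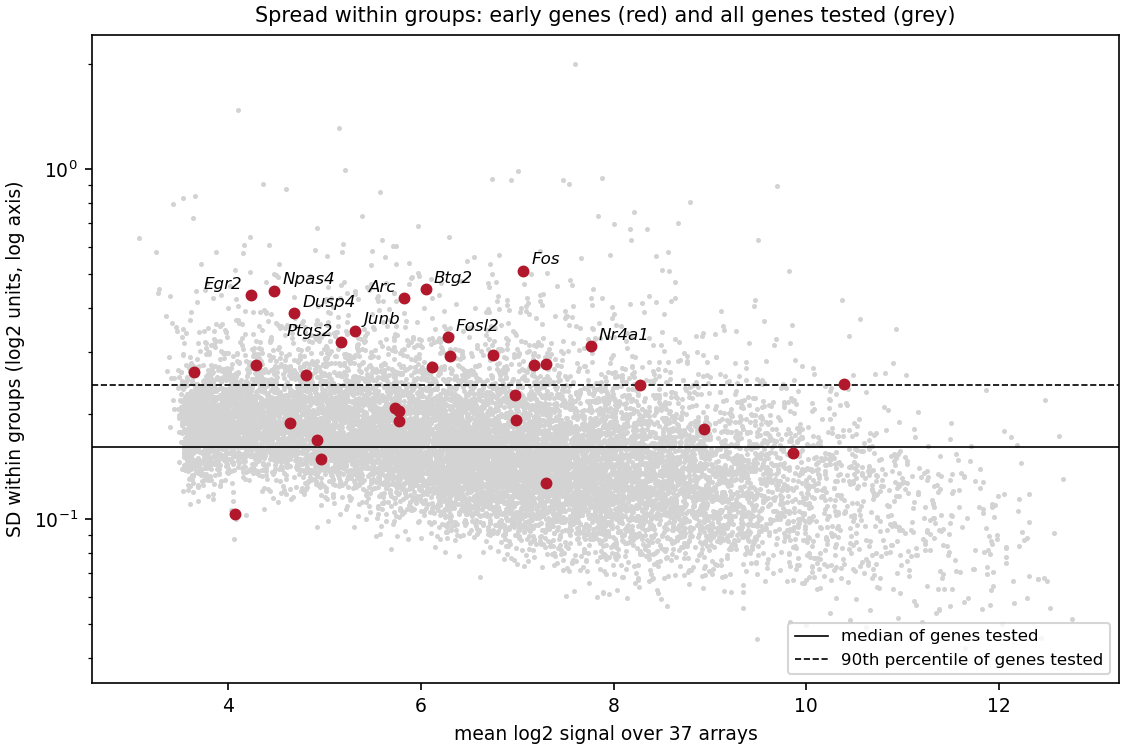
SD within groups (log axis) against mean log2 signal over the 37 arrays, for the genes tested (grey) and the 32 early genes (red), with lines at the median (0.16) and 90th percentile (0.24) of the genes tested. Of the early genes, 20 lie above the upper line.

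Array-to-array changes in Fos were shared by part of the group. Residuals from the group means were correlated with those of Fos over 37 arrays, with 100000 permutations within groups and adjustment over the 13077 other genes. Of 31 early genes, 6 passed, all above 0, where 0.0918% of all genes passed. They were Arc (r = 0.83, Spearman correlation 0.82), Egr2 (0.79), Junb (0.78), Dusp6 (0.75), Dusp1 (0.67) and Nr4a1 (0.62), with permutation adjusted p-values of 0.0218 for the first 5 and 0.0327 for Nr4a1. Btg2, at 0.69, lay at the threshold (adjusted p = 0.0503), and Npas4 and Ptgs2, both at 0.61, missed it (adjusted p = 0.185). The 6 belong to 5 of the 7 roles, so the genes that moved with Fos were both nuclear factors and synaptic or signalling genes. With the Spearman correlation, 5 early genes passed, where 0.0612% of all genes did.

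The median r with Fos was 0.47 over the early genes and 0.01 over all genes, and 30 of 31 early genes were above 0. An r above 0.5 was found for 14 early genes and for 55 genes in all. Nr4a2, at -0.18, was the exception below 0, and Sik1 (0.01), Homer1 (0.02), Nptx2 (0.02), Zfp36 (0.04), Jun (0.11) and Egr3 (0.13) were the lowest above it. These values hold for the probe set used: other probe sets gave 0.46 for Jun, up to 0.38 for Homer1 and 0.24 for Nptx2. The points share the 37 arrays and any RNA quality or dissection difference between them. Among the early genes themselves, 496 pairs had a median r of 0.24, against 0.02 over all gene pairs, and Arc with Dusp1 had the highest (0.83).

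The number of early genes that passed differed when the array sets were removed or arrays were left out. With the set means also removed, 4 early genes passed, namely Arc (0.79), Junb (0.78), Egr2 (0.73) and Dusp1 (0.67), where 0.0535% of all genes passed, and the median r was 0.38. Bdnf (0.15), Egr1 (0.26) and Fosl2 (-0.02) were lower there than without that step, at 0.50, 0.47 and 0.47. Without C57 WT array 40 and 129SV KO array 59, the 2 arrays whose Fos residuals lay farthest from the median, 0 early genes passed and 0.0% of all genes did, while the median r of the early genes was 0.44. Genes at the smallest p that the permutations can give (1e-05) pass if at least 3 reach it, or if enough other genes come close. Here 2 early genes, Arc and Egr2, reached it, with a permutation adjusted p of 0.0654. Leaving out array 40 alone, 8 early genes passed, of 23 genes in all, and leaving out array 59 alone, 5 did, of 5 genes in all. The r of Arc lay between 0.80 and 0.86 with any 1 array left out.

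The co-variation also differed in strength between groups as a description. The median r with Fos was 0.18 in 129SV KO and 0.71 in 129SV WT, and 0.36 in C57 KO and 0.44 in C57 WT. These differences were not tested.

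The 10 genes outside the 33 that followed the early gene score most closely over the 37 arrays were Tmem198 (r = 0.66), Rnd3 (0.62), Lrrc57 (0.59), Csk (0.59), Pfkfb3 (0.59), Map2 (0.59), Top1 (0.59), Il34 (0.57), Snx1 (0.57) and Pdp1 (0.56). Map2 is a dendritic microtubule protein, and Top1 the topoisomerase that acts ahead of RNA polymerase. With Fos in place of the score, the r of Tmem198 was 0.45 over all arrays, 0.04 within set 1 and 0.37 within set 2. The r of Snx1 with Fos was 0.58 over all arrays, 0.50 within set 1 and 0.46 within set 2. For Map2 it was 0.47 over all arrays, but -0.01 within set 1 and -0.02 within set 2.

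Other genes of the pathway were set beside the 33. Of 38 other activity-regulated genes, 32 were tested, and 0 passed for KO against WT in C57, in 129SV or over both strains. Their median difference was -0.02 in 129SV and 0.01 in C57. The largest differences in 129SV were Inhba, an activin subunit (-0.17), Sgk1, a serum-induced kinase (-0.16), and Pim1, a survival kinase (-0.11). In C57 they were Inhba (-0.20), Syt4, a synaptotagmin (0.18), and Rgs4, a regulator of G protein signalling (-0.17). Of 40 upstream genes (receptors, channels, kinases and CREB cofactors), 29 were tested and 0 passed. Their largest differences were Prkaca (-0.14), Grin2b (-0.13) and Ep300 (-0.09) in 129SV, and Grin2b (0.13), Cacna1c (0.12) and Crtc2 (0.12) in C57.

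Between the strains, Camk4, a nuclear CaM kinase that phosphorylates CREB, was lower in 129SV than in C57, by -0.46 in WT (limma adjusted p = 0.0415) and -0.44 in KO (adjusted p = 0.0331). It was the 1 of 29 upstream genes to pass, where 2.06% of all genes did in WT and 3.06% in KO. In KO, Per1, a clock gene with a CRE-driven promoter (-0.46, adjusted p = 0.00936), and Rasl11a, a small GTPase (-0.24, adjusted p = 0.0255), were lower in 129SV. They were the 2 of 32 activity-regulated genes that passed, where 3.06% of all genes did. Of these lists, Pcsk1, a prohormone convertase, followed Fos (r = 0.62, permutation adjusted p = 0.0436). It was 1 of 32 activity-regulated genes, and 0 of 29 upstream genes passed, where 0.0918% of all genes did.

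Markers of regions and cell types that the dissection could hold were compared in the same way, and 0 passed for KO against WT in either strain. Of 14 striatum markers, 12 were tested, and all 12 differences were below 0 in both strains. Of all genes, 52.4% were below 0 in 129SV and 38.4% in C57. In C57, 11 striatum markers had an unadjusted p under 0.05, where 6.37% of all genes had one. Over the 12 markers the median was -0.16 in 129SV and -0.40 in C57. Their summed linear signal ran from 3968 to 6415 in 129SV KO, against 4777 to 6537 in 129SV WT, and from 3955 to 6627 in C57 KO, against 4506 to 8376 in C57 WT. The median r with Fos of the striatum markers was 0.16, and their part in the early gene differences was not tested. Median KO minus WT differences of the other lists lay between -0.05 and 0.02 in 129SV and between -0.12 and 0.06 in C57, over hippocampus, cortical layer, excitatory neuron, vessel, microglia, choroid plexus, astrocyte and oligodendrocyte markers. Choroid plexus markers had the widest summed range, 209 to 1290 in 129SV KO, against 166 to 7109 in 129SV WT, and 144 to 932 in C57 KO, against 135 to 8490 in C57 WT. Between strains in KO, 1 of 8 astrocyte markers passed, S100b (-0.25, limma adjusted p = 0.00528), where 3.06% of all genes did. All 8 astrocyte differences were below 0 in 129SV KO against C57 KO (median -0.12, 4 with an unadjusted p under 0.05), as were 7 of 7 oligodendrocyte (median -0.14, 3 unadjusted) and 6 of 9 microglia differences (median -0.10, 5 unadjusted). Of all genes, 12.3% had an unadjusted p under 0.05 between the KO groups. The early genes had a median of -0.10 in that comparison, and the markers' part in it was not tested. No marker of these lists passed the correlation test with Fos.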

How the data were processed

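The deposited values were log2 signals of 45101 probe sets on 37 arrays, normalized by the authors before deposit. MAS5 and GCRMA are named in the submitters' processing notes, with no version and no statement of which made these values. The array medians lay between 4.30 and 4.36, and the values between 1.34 and 13.76. Signals of different probe sets are not comparable as levels, and the number of arrays limits the precision.

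Probe sets were named from the platform annotation: 34945 had 1 gene symbol, 932 several and 9160 none, and 64 were controls. Each gene was represented by its single-symbol probe set with the highest mean. Genes were tested if at least 1 group mean reached 3.60, the 40th percentile of probe set means, with limma 3.58.1 (R 4.3.3) on 1 mean per group over all 37 arrays, and Benjamini-Hochberg adjustment over 13078 genes. The fit was tested on simulated data. Groups came from the sample titles.

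Residuals from the group means were correlated with Fos in Python 3.11.15 (NumPy 2.4.6, SciPy 1.17.1, pandas 2.3.3), with 100000 permutations within groups. The p-values were adjusted over all genes, where the written plan had adjusted them over the early genes alone. Promoter letters came from RefSeq (GRCm38.p6). Figures were drawn with matplotlib 3.10.9.

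All 33 early genes were named whatever their result. Of the other lists, genes that passed were named, up to 5 per list and comparison, and otherwise the 3 with the largest difference in each comparison of KO with WT, and the 10 genes most like the score were named. The members, lists and array sets were chosen with earlier results of these data known. Alternatives were other filters, normalizations, probe set rules, variance settings, samples in the fit, array sets, the actin difference as a covariate and each array left out.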

Additional observations from a re-analysis of the deposited data

Results flagged for a closer look

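Among 136 sets of values (34 quantities in 4 groups), 9 had a highest or lowest array far from the rest by Dixon's test, where chance alone marks about 1 in 20. The arrays were C57 WT array 29 for Fosb (4.10, next value 3.75), 129SV KO array 59 for Nr4a2 (7.60, next 8.18) and Gadd45b (6.44, next 5.80), and 129SV KO array 55 for Klf4 (5.37, next 4.84). They also were 129SV WT array 73 for Bdnf (5.94, next 6.59), C57 WT array 40 for Dusp1 (8.10, next 7.52), and C57 KO array 17 for Btg2 (6.69, next 6.15). Zfp36 stood apart on C57 KO array 10 (5.10, next 4.48) and C57 WT array 37 (4.89, next 4.39). Array 73 also had the highest actin 3′ to 5′ difference, 2.76, and its part in the Bdnf value was not tested.

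The difference between the array sets was not the same in the strains for 4 early genes. The set difference in 129SV minus that in C57 was 0.91 for Fosl2, 0.87 for Dusp4, 0.68 for Dusp6 and 0.63 for Nr4a3 (limma adjusted p under 0.05 for each).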

How the results depend on the processing

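For KO against WT, 0 early genes passed in C57, in 129SV, over both strains and for the difference of the KO effects, under 11 or 12 other settings and with each of 37 arrays left out. Within each strain the median KO minus WT difference stayed below 0 in all of them, between -0.22 and -0.06 in 129SV and between -0.11 and -0.01 in C57. For 129SV against C57 in WT, the early genes passing numbered 1 with quantile normalization, 2 with array weights, 1 with only the groups compared, 1 within set 2 and 1 with the actin covariate, and 0 to 2 with 1 array left out. In KO they numbered 1 with quantile normalization, 1 with only the groups compared, 8 within set 1, and 0 to 2 with 1 array left out. The median difference in WT was -0.15 within set 1 and 0.17 within set 2, and the score difference was -0.19 and 0.15, and in KO the score difference was 0.037 within set 2. The median r with Fos was 0.31 within set 2, and 0 early genes passed without C57 WT array 40 and 129SV KO array 59, an exclusion chosen after the data had been seen. The cause was not tested. No paired analysis was possible because the groups share no replicate numbers.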
